A study of Mus musculus with 7 samples.

Results

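The genes described here code for the cyclic GMP-AMP synthase (cGAS) and stimulator of interferon genes (STING) pathway, which senses DNA in the cytosol, and for the RIG-I-like receptors, which sense RNA. They were chosen by gene symbol, with earlier results of these data known. Of 9 genes named (Mb21d1, Tmem173, Tbk1, Irf3, Trex1, Samhd1, Ddx58, Ifih1 and Mavs), 8 were measured among the 23930 amplicons of a mouse panel. Trex1, an exonuclease that degrades cytosolic DNA, is not analysed here. Both groups were parous females of mixed background that carried Blg-Cre, floxed Brca1 on both alleles and 1 functional copy of Trp53. The control group held Blg-Cre;Brca1f/f;Trp53+/- mice 1, 2 and 3 (n = 3). The other group held Blg-Cre;HMMR Tg/Tg;Brca1f/f;Trp53+/- mice 7, 8, 9 and 11 (n = 4), here called HMMR Tg/Tg mice, in which human HMMR is expressed from the Rosa26 locus once Cre has removed a stop cassette. Cre is driven by the β-lactoglobulin promoter, which is active in mammary epithelium during lactation, while whole sections also hold other cells. The tissue was the mammary gland contralateral to an incident tumor in mice that the labels call age-matched, fixed in formalin and embedded in paraffin. The study located cGAS in micronuclei by immunofluorescence and reported more cGAS-positive staining in premalignant tissue of the HMMR Tg/Tg genotype. In cultured mammary cells of that genotype, a cGAS inhibitor lowered the expression of several of the proinflammatory genes examined. The staining is a question of protein and place, whereas the values below are RNA of whole sections.

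cGAS binds DNA outside the nucleus and makes a cyclic dinucleotide that activates STING on the endoplasmic reticulum. STING recruits the kinase TBK1, which phosphorylates the transcription factor IRF3, and IRF3 then induces type I interferon genes. RIG-I and MDA5 sense viral and misplaced cellular RNA and reach the same kinase through the mitochondrial adaptor MAVS. SAMHD1 is a dNTP hydrolase that restrains accumulation of DNA fragments and dampens interferon responses. Sensors such as RIG-I and MDA5 are themselves induced by interferon, which forms a positive loop. Ruptured micronuclei are a known source of DNA for cGAS.

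Values are reads per 1e6 reads on the panel (RPM), with 1 amplicon per gene. Because amplicons can differ in how well they amplify, levels were compared between mice and not between genes. Total reads ranged from 5532358 in control mouse 1 and 5976449 in mouse 11 to 9345916 in mouse 8. Luminal keratins Krt8 (84.7 ± 20.5 RPM, SD, n = 3, and 95.4 ± 9.54 RPM, SD, n = 4) and Krt18 (348 ± 53.2 and 378 ± 43.5 RPM, SD) and basal Krt14 (270 ± 20.5 and 363 ± 95.1 RPM, SD) were read in every mouse. Skeletal muscle transcripts separated the groups, with a summed level over 10 markers between 1652 and 8527 RPM in the controls and between 20.1 and 97.6 RPM in the HMMR Tg/Tg group.

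None of the 8 measured sensor and adaptor genes was called between the genotypes. With limma on log2(RPM + 1) and Benjamini-Hochberg adjustment over 13080 genes tested, 0 of 8 had an adjusted p under 0.05, where 0.405% of all genes tested did (0.0382% higher and 0.367% lower in HMMR Tg/Tg mice). At an unadjusted p under 0.05 the count was 0 of 8, where 9.71% of all genes tested had one. The count tests on recovered reads also gave 0 of 8 at an adjusted p under 0.05 and 0 of 8 at an unadjusted one. For edgeR's quasi-likelihood test the background shares were 0.528% and 9.57%, and for DESeq2 they were 2.08% and 10.5%. The groups overlapped for each of the 8 genes, where they did not overlap for 9.86% of all genes tested. Of the 8 log2 fold changes (HMMR Tg/Tg minus control), 5 were positive and 3 negative. Their median was 0.18, where the median of all genes tested was 0.11 and 61.2% of all genes tested had a positive value. In RNA of whole sections, fewer cells that express a gene and less RNA per cell cannot be told apart.

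**Figure D1:**
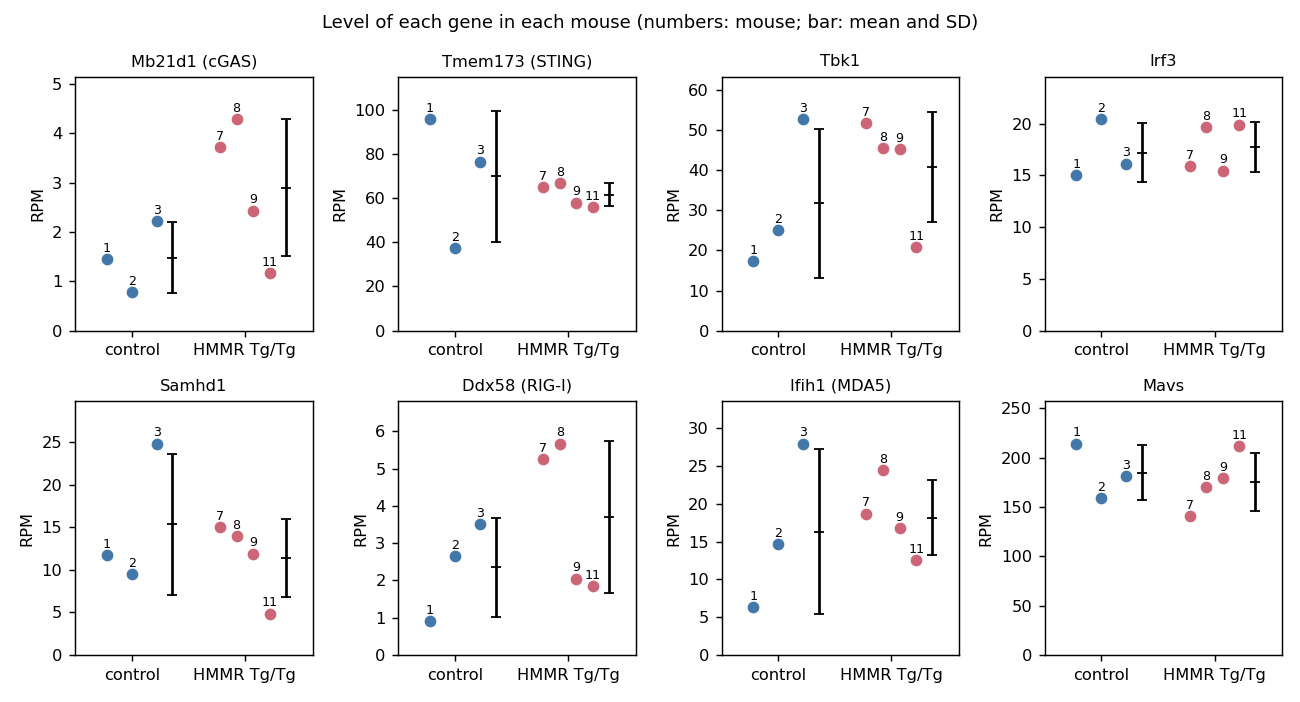
Level of each of the 8 measured genes in RPM (y axis, from 0) in the 3 control mice (blue) and the 4 HMMR Tg/Tg mice (red), with the mouse number above each point and the mean and SD as a black bar. The groups overlap in every panel, and Irf3 and Mavs vary least between mice.

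Mb21d1, the gene of cGAS, had few reads. Its span in GRCm38.p6 starts at 78430518 and ends at 78443237 on chromosome 9. In control mice 1, 2 and 3 it was read at 1.45, 0.773 and 2.22 RPM. In HMMR Tg/Tg mice 7, 8, 9 and 11 it was read at 3.71, 4.28, 2.43 and 1.17 RPM. Thus 3 of 4 HMMR Tg/Tg mice lay above every control mouse, but mouse 11 lay below control mice 1 and 3. These values rest on few reads, from 7 in control mouse 2 and 7 in mouse 11 to 40 in mouse 8. The 95% exact Poisson intervals cover counting error only. They were 0.311 to 1.59 RPM for control mouse 2 and 3.06 to 5.83 RPM for mouse 8. These do not meet, but the 2 mice were the lowest and the highest of the 7. The interval of control mouse 3, 1.34 to 3.47 RPM, meets those of all HMMR Tg/Tg mice. The ratio of group means was 1.96 (2.90 ± 1.39 RPM, SD, n = 4, over 1.48 ± 0.725 RPM, SD, n = 3). Its log2 fold change was the largest of the 8 at 0.62 (standard error 0.41, 95% interval −0.29 to 1.52, adjusted p = 0.663 from limma). The interval reaches from 0.819-fold to 2.87-fold on the log2(RPM + 1) scale, which understates changes of a gene read this rarely, so neither no change nor a more than 2-fold rise lies outside it.

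Tmem173, the gene of STING, spans positions 35733678 to 35740554 of chromosome 18 in GRCm38.p6. Its levels were 95.6, 37.2 and 76.5 RPM in control mice 1, 2 and 3. They were 64.9, 66.9, 57.9 and 56.1 RPM in HMMR Tg/Tg mice 7, 8, 9 and 11. All HMMR Tg/Tg values lay inside the control range, and the coefficient of variation was 42.7% in control mice and 8.56% in HMMR Tg/Tg mice, a difference in spread that was not tested. The log2 fold change was −0.081 (standard error 0.29, 95% interval −0.73 to 0.56, adjusted p = 0.954 from limma), so the interval spans 0.604-fold to 1.48-fold. Within the control group Tmem173 and the macrophage markers stood in the same order, but in the HMMR Tg/Tg group they did not. The sum of 12 macrophage markers was 3618, 1558 and 2421 RPM in control mice 1, 2 and 3, and 2277, 2072, 2999 and 2302 RPM in mice 7, 8, 9 and 11. Macrophages are among the cell types that express STING, and the part of macrophage content in these values was not tested.

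Tbk1 and Irf3 code for the kinase and the transcription factor downstream of both sensing routes. Tbk1, which spans 121546455 to 121586794 of chromosome 10, had levels of 17.4, 25.2 and 52.7 RPM in control mice 1, 2 and 3. In HMMR Tg/Tg mice 7, 8, 9 and 11 it was read at 51.9, 45.5, 45.3 and 20.9 RPM. Control mice 1 and 2 and mouse 11 formed the lower values, and control mouse 3 was the highest of the 7, so that the values did not divide by genotype. The log2 fold change was 0.43 (standard error 0.40, 95% interval −0.46 to 1.31, adjusted p = 0.769 from limma). Without control mouse 3 it was 0.86 (unadjusted p = 0.0432, adjusted p = 0.407 from limma), and without control mouse 1 it was 0.083. Irf3, which spans 44997648 to 45002848 of chromosome 7, was the steadiest of the 8. Levels were 15.0, 20.4 and 16.1 RPM in control mice 1, 2 and 3 and 15.9, 19.7, 15.5 and 19.9 RPM in mice 7, 8, 9 and 11. The highest value was 1.36 times the lowest, and 90.4% of all genes tested had a larger residual standard deviation. The log2 fold change was 0.046 (standard error 0.25, 95% interval −0.51 to 0.60, adjusted p = 0.969 from limma). Its sign turned with TMM factors, with quantile normalization and in both count tests.

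Samhd1, which spans 157097534 to 157135096 of chromosome 2, was the member with the most negative difference. Control mice 1, 2 and 3 had 11.7, 9.49 and 24.8 RPM, and HMMR Tg/Tg mice 7, 8, 9 and 11 had 15.0, 13.9, 11.9 and 4.85 RPM. Control mouse 3 was the highest and mouse 11 the lowest, and the remaining 5 mice lay between 9.49 and 15.0 RPM. For Samhd1 the log2 fold change was −0.38 (standard error 0.43, 95% interval −1.35 to 0.58, adjusted p = 0.815 from limma). It was 0.0016 without control mouse 3 and −0.056 without mouse 11. Samhd1 is expressed in many leukocytes. The sum of 4 leukocyte markers was 4102, 840 and 4006 RPM in control mice 1, 2 and 3 and 1736, 1378, 902 and 1025 RPM in mice 7, 8, 9 and 11. Control mouse 3 was high in both. Control mouse 1 had the highest leukocyte sum and 11.7 RPM of Samhd1. Control mouse 2 and mouse 9 had lower leukocyte sums than mouse 11 and more Samhd1 than mouse 11. With the mean log2(RPM + 1) of the 4 leukocyte markers as a covariate the log2 fold change of Samhd1 was 0.17 (adjusted p = 0.934 from limma). The part of leukocyte content in these values was not tested.

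Ddx58 and Ifih1 code for the RNA sensors RIG-I and MDA5, helicases of the same family. An interferon-stimulated response element (ISRE) is the site through which interferon-induced factors act, and it was searched for because both genes are known interferon targets. The ISRE-type pattern searched was GAAA, any 2 bases and GAAA again. Both strands were searched, in windows from 250 bases before to 50 bases after each start site in RefSeq for GRCm38.p6. Of 32851 such windows, 3.44% held it. Windows of 7 of the 8 genes were searched, and Tmem173 was not. Among these 7, those of Ddx58 and Ifih1 were the only ones with a match to this pattern. The matches are printed with up to 10 bases on each side, on the gene's strand, with the match in capitals. That of Ddx58 fits the pattern on the opposite strand and is at chr4:40239804-40239833 (minus strand). That of Ifih1 is at chr2:62646206-62646233 (minus strand).
Ddx58: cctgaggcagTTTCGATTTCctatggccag
Ifih1: gaagagaatcGAAACAGAAAccgatctg
The match starts 3 bases into the transcript in Ddx58 and 33 bases into it in Ifih1, counting the start site as base 1. Of 30 genes of a list of interferon-stimulated genes with a window, 15 held the ISRE-type pattern in any of their windows. The 3.44% above counts single windows and not genes. A second pattern, TTC, any 3 bases and GAA, was searched in the same windows, and 8.30% of them held it. Among the 7 genes searched, only the window of Samhd1 did. None of these matches shows binding.

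Ddx58, which spans 40203777 to 40239825 of chromosome 4, had levels of 0.904, 2.65 and 3.51 RPM in control mice 1, 2 and 3. Levels were 5.25, 5.67, 2.05 and 1.84 RPM in HMMR Tg/Tg mice 7, 8, 9 and 11. Mice 7 and 8 lay above every control mouse, and mice 9 and 11 lay within the control range. The reads behind these values ranged from 5 in control mouse 1 to 53 in mouse 8, and the 95% exact Poisson interval of control mouse 1 was 0.294 to 2.11 RPM. For Ddx58 the log2 fold change was 0.47 (standard error 0.46, 95% interval −0.54 to 1.48, adjusted p = 0.781 from limma). Without control mouse 1, which had the fewest reads in all, it was 0.10. Ifih1, which spans 62595618 to 62646255 of chromosome 2, had levels of 6.33, 14.7 and 28.0 RPM in control mice 1, 2 and 3 and of 18.7, 24.5, 16.8 and 12.5 RPM in HMMR Tg/Tg mice 7, 8, 9 and 11. The control mice thus held both the lowest and the highest value of the 7. For Ifih1 the log2 fold change was 0.32 (standard error 0.43, 95% interval −0.64 to 1.28, adjusted p = 0.847 from limma), and it was −0.19 without control mouse 1. A predicted RefSeq gene, Gm39839, overlaps the span of Ifih1, and whether reads are shared is not known.

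Mavs, the adaptor of both RNA sensors, spans positions 131234063 to 131248025 of chromosome 2. Control mice 1, 2 and 3 had 214, 159 and 181 RPM, and mice 7, 8, 9 and 11 had 140, 170, 179 and 212 RPM. With 1096 to 1590 reads per mouse it had the most reads of the 8, and its highest value was 1.52 times its lowest. Its log2 fold change was −0.079 (standard error 0.20, 95% interval −0.52 to 0.36, adjusted p = 0.931 from limma). This was the narrowest interval among the members, from 0.699-fold to 1.28-fold, and a change of 2-fold in either direction lies outside it.

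**Figure D2:**
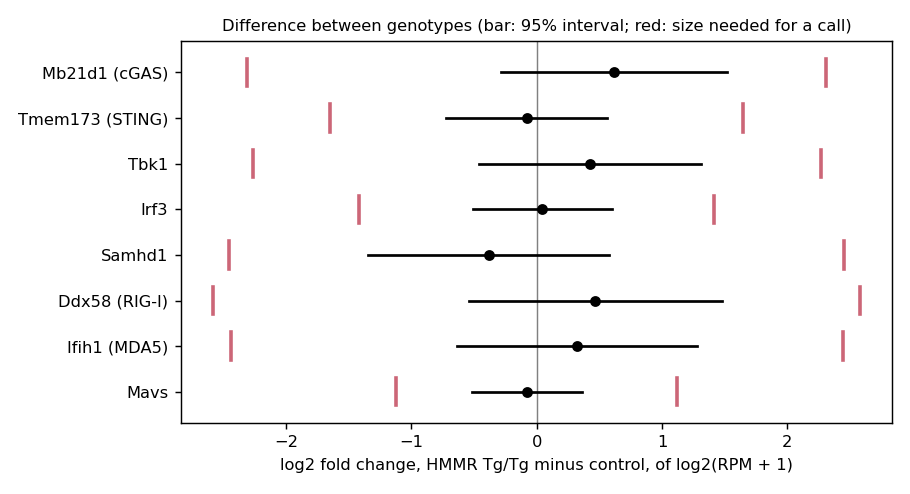
Log2 fold change of each measured gene (points, HMMR Tg/Tg minus control, of log2(RPM + 1)) with its 95% interval from limma (black bars) and the size that it would have needed for a call at an adjusted p under 0.05 (red ticks). All 8 intervals include 0, and the needed size runs from 1.12 for Mavs to 2.58 for Ddx58.

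The intervals state what these 7 mice could show. The least significant gene that was called had an unadjusted p of 0.000174. At its own standard error, a member would have needed a log2 fold change of 1.12 (Mavs), 1.42 (Irf3), 1.65 (Tmem173) or 2.27 to 2.58 (the other 5) to reach it. A 2-fold change of any of the 8 would therefore not have been called. Irf3, Mavs and Tmem173 had intervals that lie within 2-fold in both directions. For Mb21d1, Tbk1, Ddx58 and Ifih1 the interval includes a 2-fold rise, and for Samhd1 it includes a 2-fold fall.

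Spread between single mice was wide for most of these genes. The highest value was 6.27 times the lowest for Ddx58, 5.54 times for Mb21d1, 5.11 times for Samhd1, 4.42 times for Ifih1, 3.04 times for Tbk1 and 2.57 times for Tmem173. Residual standard deviations of Ifih1, Samhd1, Tbk1 and Ddx58 were exceeded by only 14.7% to 18.1% of all genes tested. Averaged over the 8 genes, the difference from each gene's mean was −0.35, −0.30 and 0.36 on the log2 scale in control mice 1, 2 and 3 and 0.25, 0.37, 0.0049 and −0.35 in mice 7, 8, 9 and 11. Control mice 1 and 2 and mouse 11 were thus low, and control mouse 3 and mice 7 and 8 high, in both genotypes. As a median over all genes tested, this difference was −0.23, −0.051 and 0.12 in control mice 1, 2 and 3. In mice 7, 8, 9 and 11 that median was 0.15, 0.047, 0.10 and −0.10. In mouse 11, 6 of the 8 genes were among the lowest pair of values, as were 39.0% of all genes tested. In control mouse 1, 4 of the 8 were the lowest of the 7, as were 33.7% of all genes tested. These are the libraries with the fewest reads, and the part of depth in these values was not tested. Tmem173 and Mavs went the other way in control mouse 1, where each had its highest value.

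**Figure D3:**
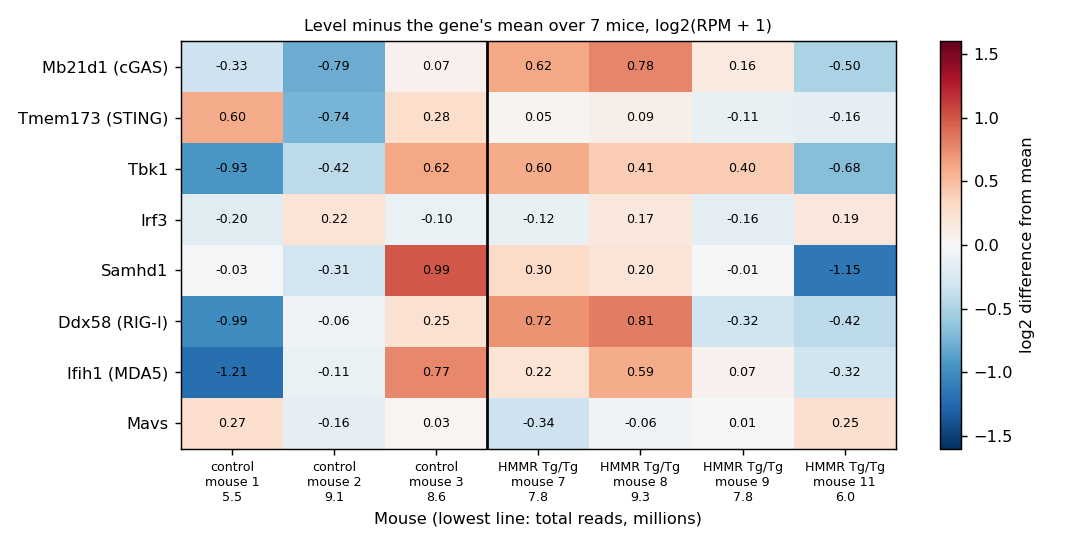
Each measured gene (rows) in each mouse (columns, total reads below in units of 1e6) as the difference of log2(RPM + 1) from the gene's mean over the 7 mice, in log2 units. Ifih1 runs from −1.21 in control mouse 1 to 0.77 in control mouse 3, and Irf3 stays between −0.20 and 0.22.

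Genes whose standardised values over the 7 mice were closest to those of a member were taken from 8225 genes with a mean of at least 10 RPM. The measure was the mean squared difference of standardised log2(RPM + 1), over 7 mice. Closest to Mb21d1 were Cep192 (0.058) and Mycl (0.064), closest to Tmem173 were Utp14a (0.018) and Cab39 (0.025), and closest to Ddx58 were Sdhaf1 (0.031) and Ddx47 (0.037). Closest to Ifih1 were Vipas39 (0.012) and Gbp2 (0.013), a guanylate binding protein induced by interferon. Among so many genes, between 12 (Tmem173) and 51 (Ifih1) lay below 0.1 of a member by this measure, so the nearest ones are not singled out by much.

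The other genes of the pathway were grouped in 7 lists. Of 141 genes with an amplicon 128 were tested. None was called by limma at an adjusted p under 0.05, and none by edgeR or DESeq2, beside 0.405%, 0.528% and 2.08% of all genes tested. List medians of the log2 fold change ran from 0.097 to 0.16, near the 0.11 of all genes tested.

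Of 22 tested genes of other DNA sensors and their cofactors, 13 had a positive and 9 a negative log2 fold change (median 0.12), and 1 was higher and 0 lower at an unadjusted p under 0.05 from limma, beside 6.49% and 3.22% of all genes tested. This was Polr3a, the catalytic subunit of RNA polymerase III, which can copy AT-rich DNA into RNA that RIG-I senses. Levels were 4.34, 8.39 and 11.0 RPM in control mice 1, 2 and 3 and 17.2, 11.3, 15.9 and 12.0 RPM in mice 7, 8, 9 and 11. The groups did not overlap, as for 6.52% of all genes tested in this direction, though mouse 8 lay just above control mouse 3 (log2 fold change 0.82, standard error 0.34, adjusted p = 0.471 from limma). The log2 fold change of Polr3d, another subunit, was 0.60 (adjusted p = 0.604 from limma). That of Mre11a, a nuclease of DNA break repair with only 8 to 39 reads per mouse, was 0.65 (adjusted p = 0.603). For Ifi204, of the family of interferon-inducible DNA sensors, it was −0.58 (adjusted p = 0.602). Ifi205, of the same family, had the lowest value of the list (−1.68, adjusted p = 0.664) and was singled out after its values were seen. It was read at 1.28 RPM (10 reads) in mouse 7 and at 70.1 to 220 RPM in the other 6 mice.

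Of 10 tested genes that clear or mask nucleic acid, 9 had a positive log2 fold change (median 0.099), beside 61.2% of all genes tested. At an unadjusted p under 0.05 from limma 1 was higher and 0 lower, beside 6.49% and 3.22% of all genes tested. The higher gene was Banf1, which codes for a chromatin protein that keeps cGAS off nuclear DNA. Control levels were 79.4, 69.3 and 80.1 RPM in mice 1, 2 and 3, and mice 7, 8, 9 and 11 had 96.2, 114, 85.5 and 117 RPM. All HMMR Tg/Tg mice lay above all control mice (log2 fold change 0.42, standard error 0.19, adjusted p = 0.503 from limma), and so did those of 6.52% of all genes tested. Rnaseh2a and Rnaseh2c, subunits of the enzyme that removes RNA from RNA-DNA hybrids, had 0.45 (adjusted p = 0.576) and 0.46 (adjusted p = 0.707). Rnaseh2c had only 13 to 41 reads per mouse. The lysosomal nuclease Dnase2a had −0.37 (adjusted p = 0.702).

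Of 16 tested genes of other RNA sensors and cofactors, 9 had a positive and 7 a negative log2 fold change (median 0.097), beside 61.2% positive among all genes tested. At an unadjusted p under 0.05 from limma 0 were higher and 0 lower, beside 6.49% and 3.22% of all genes tested. The adjusted count of edgeR was also 0, beside 0.528% of all genes tested. Zcchc3, a cofactor of cGAS and RIG-I-like receptors, had −0.55 (adjusted p = 0.683 from limma) and only 5 to 37 reads per mouse. The antiviral factor Zc3hav1 had 0.30 (adjusted p = 0.724) and the oligoadenylate synthetase Oas2 −0.39 (adjusted p = 0.75).

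Of 20 tested kinases, adaptors and transcription factors, 13 had a positive log2 fold change (median 0.14), and 1 was higher and 0 lower at an unadjusted p under 0.05 from limma, beside the same 6.49% and 3.22%. This was Azi2, which codes for an adaptor that binds TBK1. It was read at 13.2, 12.9 and 27.2 RPM in control mice 1, 2 and 3 and at 23.9, 31.0, 35.2 and 25.6 RPM in mice 7, 8, 9 and 11. Control mouse 3 lay among the HMMR Tg/Tg mice (log2 fold change 0.74, standard error 0.30, adjusted p = 0.456 from limma). Optn, which codes for another TBK1 partner, had 0.69 (adjusted p = 0.61), which was 0.21 without control mouse 2 and 1.11 without control mouse 3. Irf5, of the same factor family as Irf3, had −0.85 (adjusted p = 0.623), with 5 reads in mouse 11 and at most 97, in control mouse 3. Nfkb2, which codes for the precursor of p52, had 0.44 (adjusted p = 0.622).

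Of 25 tested regulators, 19 had a positive and 6 a negative log2 fold change (median 0.16), beside 61.2% positive among all genes tested. At an unadjusted p under 0.05 from limma 0 were higher and 2 lower, beside 6.49% and 3.22% of all genes tested. Nlrc5, which codes for an activator of MHC class I genes, was read at 49.5, 56.7 and 140 RPM in control mice 1, 2 and 3. In mice 7, 8, 9 and 11 it was read at 0.128, 36.9, 20.5 and 22.6 RPM. All HMMR Tg/Tg mice lay below all control mice, as for 3.34% of all genes tested in this direction, and mouse 7 held 1 read (log2 fold change −2.62, standard error 1.00, adjusted p = 0.414 from limma). Without mouse 7 the log2 fold change was −1.47 (adjusted p = 0.439). Lrrc8c, a subunit of an anion channel that carries cyclic dinucleotides, was the other gene, at −0.67 (adjusted p = 0.415). The mitochondrial ubiquitin ligase gene March5 had 0.45 (adjusted p = 0.586) and the deubiquitinase gene Otud5 0.36 (adjusted p = 0.605).

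Interferon genes were close to the limit of reading. Ifnb1, which codes for interferon β, had 5 reads in mouse 7, 4 in mouse 8 and 0 in the other 5 mice, where 0 reads allow up to 0.331 to 0.542 RPM. No other amplicon for an interferon in the list had more than 4 reads in any mouse, so these genes were not tested. Of 8 tested genes of interferon receptors and their signaling, 5 had a positive log2 fold change (median 0.16), beside 61.2% of all genes tested. At an unadjusted p under 0.05 from limma 0 were higher and 0 lower, beside 6.49% and 3.22% of all genes tested. Ifnlr1, the interferon λ receptor of epithelia, had 0.54 (adjusted p = 0.631), Stat2, a factor of the type I response, −0.46 (adjusted p = 0.631), the kinase gene Tyk2 0.24 (adjusted p = 0.776) and the receptor gene Ifnar1 0.22 (adjusted p = 0.803).

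Of 36 tested interferon-stimulated genes, 23 had a positive and 13 a negative log2 fold change (median 0.12), and 1 was higher and 0 lower at an unadjusted p under 0.05 from limma, again beside 6.49% and 3.22% of all genes tested. This was Parp9, an ADP-ribosyltransferase family gene, read at 81.5, 141 and 160 RPM in control mice 1, 2 and 3 and at 250, 289, 163 and 136 RPM in mice 7, 8, 9 and 11. Mouse 11 lay below control mice 2 and 3 (log2 fold change 0.70, standard error 0.31, adjusted p = 0.502 from limma). Cmpk2, a nucleotide kinase gene, had 0.59 (adjusted p = 0.693) and Xaf1, of cell death, −0.31 (adjusted p = 0.688). Averaged over the 36 genes, the difference from each gene's mean was −0.25, −0.18 and 0.34 on the log2 scale in control mice 1, 2 and 3 and 0.25, 0.75, −0.51 and −0.39 in mice 7, 8, 9 and 11. Over all genes tested, the median of this difference ran from −0.23 in control mouse 1 to 0.15 in mouse 7. For the 36 genes, the HMMR Tg/Tg mice thus held both the highest and the lowest mean. Mouse 8, which was highest here, also had the highest Mb21d1 and Ddx58, and mice 9 and 11, which were lowest, had the lowest Ddx58 of their group. Other values did not follow this order. Mouse 9, with the lowest mean, had 2.43 RPM of Mb21d1, above every control mouse. Ddx58 was lowest in control mouse 1 (0.904 RPM), and Ifih1 was highest in control mouse 3 (28.0 RPM).

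**Figure D4:**
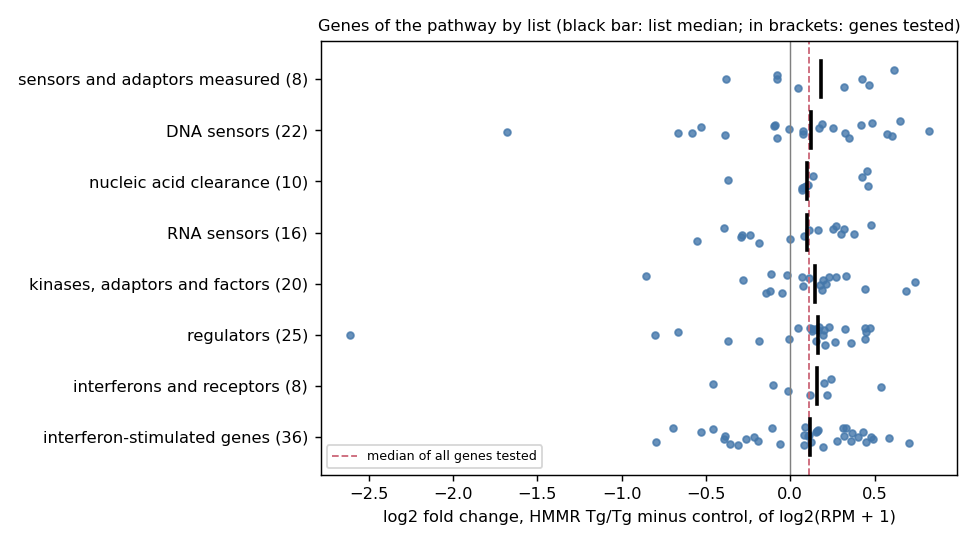
Log2 fold change (x axis, HMMR Tg/Tg minus control, of log2(RPM + 1)) of each tested gene of the 8 measured sensors and adaptors and of the 7 other lists, with list medians as black bars and the median of all genes tested as a dashed line at 0.11. The medians lie between 0.097 and 0.18, and the 2 far points to the left are Nlrc5 at −2.62 and Ifi205 at −1.68.

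Immune and epithelial content of the sections varied beside these genes. The sum of 4 leukocyte markers was 4102, 840 and 4006 RPM in control mice 1, 2 and 3 and 902 to 1736 RPM in the other group (p = 0.286 by a two-sided exact permutation test, and 0.464 after Benjamini-Hochberg over 13 marker lists). The sum of 6 B cell markers ran from 16.3 to 936 RPM in the controls and from 35.9 to 803 RPM in the HMMR Tg/Tg group. That of 5 plasmacytoid dendritic cell markers, a cell type known for interferon production, ran from 15.7 to 62.7 and from 10.4 to 24.4 RPM. Only 2 of these 5, Siglech and Lag3, reached 1 RPM in 3 mice. Ccr9, Pacsin1 and Klk1 had at most 17, 4 and 3 reads in any mouse. Of the 13 lists, those of muscle and of luminal epithelium had groups that do not overlap. The luminal sum over 11 markers lay between 2704 and 3188 RPM in the controls and between 3257 and 4449 RPM in the HMMR Tg/Tg group (p = 0.0571 by the same exact permutation test, its lowest possible value with 3 and 4 mice, and 0.371 after Benjamini-Hochberg). The luminal markers did not all go this way, as 8 had a positive and 3 a negative log2 fold change. That of Prlr was −1.03 (adjusted p = 0.126 from limma). The sum of 7 markers of dividing cells lay between 72.7 and 121 RPM in the controls and between 102 and 342 RPM in the HMMR Tg/Tg group (exact permutation p = 0.114, and 0.371 after Benjamini-Hochberg). All 7 had a positive log2 fold change. At an unadjusted p under 0.05 from limma 5 were higher, beside 6.49% of all genes tested. At an adjusted p under 0.05, limma and edgeR called 0 of them and DESeq2 called 2, beside 2.08% of all genes tested in DESeq2. No list had a marker at 0 in every mouse. With the mean log2(RPM + 1) of the leukocyte markers as a covariate the log2 fold change of Mb21d1 was 1.09 (unadjusted p = 0.032, adjusted p = 0.458 from limma). That of Tmem173 was 0.37 (adjusted p = 0.714). With the same mean of the luminal markers as a covariate, Mb21d1 and Tmem173 had 0.61 (adjusted p = 0.839) and 0.37 (adjusted p = 0.809 from limma). None of the 8 genes was called in either fit.

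**Figure D5:**
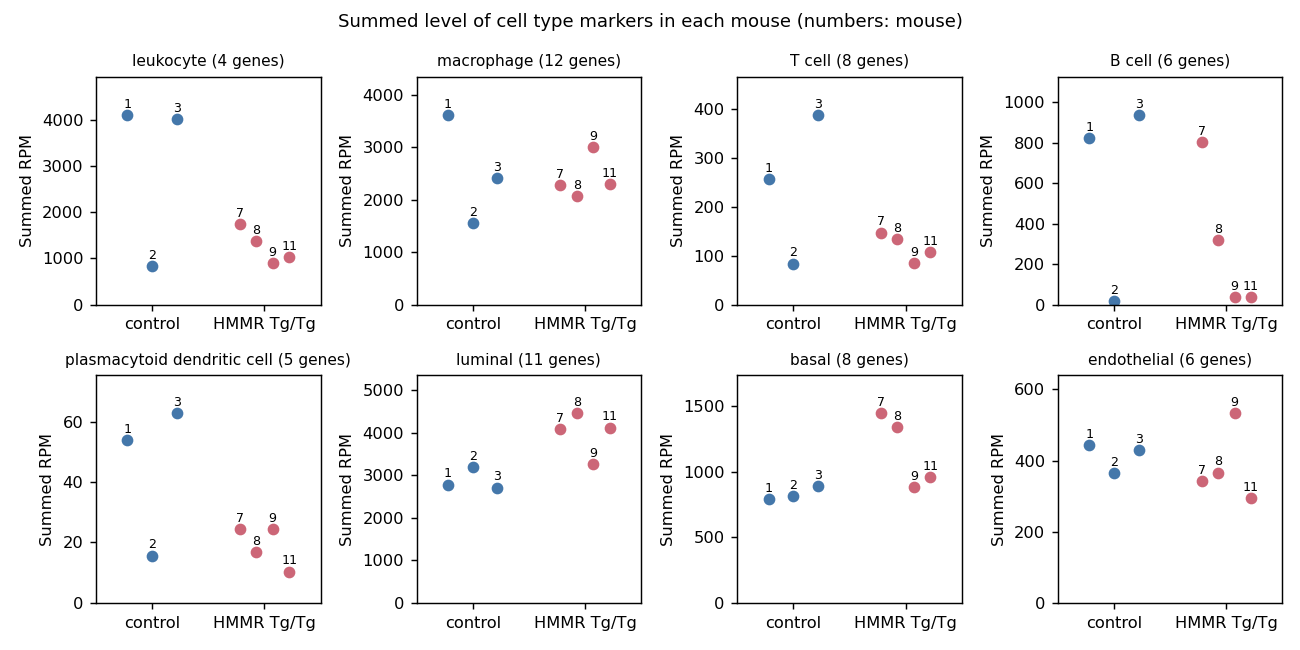
Summed RPM of the marker genes of 8 cell types (y axis, from 0) in the 3 control mice (blue) and the 4 HMMR Tg/Tg mice (red), with the mouse number above each point. Control mice 1 and 3 have leukocyte sums of 4102 and 4006 RPM, while control mouse 2 lies at 840 RPM, below all HMMR Tg/Tg mice.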

How the data were processed

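RNA was extracted from paraffin sections and sequenced by the authors on an Ion Torrent S5 with a mouse amplicon panel, and reads were processed with the AmpliSeqRNA plug-in. The submitters' processing notes name mm10. The aligner and plug-in version: not given in the sources used here. The deposited values, named TPM, are RPM without length correction, since each mouse sums to 1e6 and 100% of the values under 1000 reads are whole reads within 0.05 reads. Symbols turned into dates (27) were restored. The test was limma 3.58.1 (R 4.3.3, eBayes with trend) of log2(RPM + 1), for genes that reached 1 RPM in 3 or more mice. Recovered reads were tested with edgeR 4.0.16 and DESeq2 1.42.0 as alternatives. Marker sums were set against each other by an exact permutation test, two-sided, with 35 splits. Scripts were tested on simulated data. Pairs of 1 group differed beyond sampling noise (chi-square over degrees of freedom, 25.7 to 129.6). Intervals and floors (3 reads) cover counting error only.

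Members and lists were chosen with earlier results of these data known. Genes were named by a rule: all members, the 4 genes of lowest p per pathway list, the first 3 markers per cell type (given here mostly as sums), and the 2 nearest profiles of Mb21d1, Tmem173, Ddx58 and Ifih1. Some results that the rule took are not reported here. Alternatives were other pseudocounts, filters and scalings, both count tests, covariates and leaving out each mouse.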

Additional observations from a re-analysis of the deposited data

Results flagged for a closer look

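The summed level of 6 fibroblast markers in mouse 8, at 4931 RPM, stood apart from the other 3 HMMR Tg/Tg mice by Dixon's criterion. It was 1 of 21 values examined this way, and chance marks about 1 in 20. None of the 8 sensor and adaptor genes was marked.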

How the results depend on the processing

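Under 19 alternatives, 0 of the members and 0 genes of the pathway lists were called in each. Members below the filter of 5 RPM (Mb21d1 and Ddx58) had no value there. Mb21d1 (0.16 to 1.09) and Tbk1 (0.083 to 0.86) kept a positive log2 fold change in each alternative that gave one. Leaving out each mouse gave −0.47 to 0.19 for Tmem173, −0.041 to 0.17 for Irf3, −0.65 to 0.0016 for Samhd1, −0.19 to 0.80 for Ifih1 and −0.18 to 0.033 for Mavs. Irf3 turned negative with TMM factors (−0.027), quantile normalization (−0.053), edgeR (−0.046), DESeq2 (−0.066), the leukocyte covariate (−0.10), the luminal covariate (−0.12), a total without muscle markers and the 10 most abundant amplicons (−0.0056) and without the 2 libraries of fewest reads (−0.097), a setting added after the data were seen. In that setting Tmem173 was 0.24 and Ifih1 −0.039. With the leukocyte covariate Tmem173 was 0.37 and Samhd1 0.17, and with the luminal covariate Tmem173 was 0.37, Ddx58 −0.071, Ifih1 −0.12 and Mavs 0.14. The cause was not tested. The median of all genes was 0.11, and −0.010 in DESeq2. All genes called numbered 53 (5 higher and 48 lower), 19 with a pseudocount of 10, 266 in DESeq2 (79 higher and 187 lower), 97 and 89 with the leukocyte and luminal covariates, 1 without the 2 libraries of fewest reads, and 26 to 65 on leaving out each mouse. Ratios of summed markers (HMMR Tg/Tg over control) on leaving out each mouse were 0.799 to 1.21 for macrophages, 0.811 to 1.00 for endothelium and 0.918 to 1.54 for adipocytes. No paired analysis was made because the labels name no pairs of mice between the 2 groups. Counts of 5 to 53 reads limit Ddx58 and 7 to 40 reads limit Mb21d1.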

Other observations

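Some genes of the pathway did not reach 1 RPM in 3 mice and were not tested. Aim2, a DNA sensor of the inflammasome, had 2, 6 and 38 reads in control mice 1, 2 and 3 and 14, 4, 7 and 1 reads in mice 7, 8, 9 and 11. Mx2, an interferon-induced GTPase gene, had 24 reads in mouse 8 and 0 to 6 reads in the other 6 mice.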
